A study of Mus musculus with 27 samples.

Results

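Pam (peptidylglycine alpha-amidating monooxygenase) and the genes that work beside it in neuropeptide processing were followed in the whole brain of 2 inbred mouse strains. The set holds 9 genes of the 8252 named on the arrays: Pam, the prohormone convertases Pcsk1 and Pcsk2, carboxypeptidase E (Cpe), and the granins Scg2, Scg3, Scg5, Chga and Chgb. They were chosen by symbol from the platform annotation. Pam heads the set because its strain difference on these arrays was already known, and the other members were proposed with the results of the same comparison in view, so the strain differences of all members are given as descriptions, without p-values. On the arrays 8 of the 9 genes had a probe set, a group of probes that reads 1 transcript, and 4 of these had a pair, which makes 12 probe sets of 12488. Pcsk2 had no probe set listed under its symbol and was not analysed here.

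The DBA group was 4 untreated DBA/2J mice whose sex the labels do not give, and the C57 group was 5 untreated males of a strain the labels write as C57BL/2. All were 10 weeks old, and each number in the array titles was taken as 1 animal, with 1 array of RNA from the entire brain. The groups come from the titles, because the descriptions give the alternative name C57 1 to the DBA arrays as well. Because sex is stated for C57 only, it cannot be told apart from strain. Levels in whole brain do not separate fewer cells of a type from less RNA per cell. Another 18 arrays of a second platform, whose titles add a letter to the animal number, listed 8 of the 9 genes, but their listed names did not carry over: across 5522 genes named on both platforms, the mean level had a rank correlation of 0.002. No value of these arrays is given.

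Neuropeptides are made as long precursors that travel through the Golgi into dense core granules. There the convertases cut after paired basic residues, carboxypeptidase E trims the basic residues left at the end, and Pam turns a C-terminal glycine into the amide that many peptides need to bind their receptors. Granins are acidic proteins that help granules form and that are cut into peptides themselves. Scg5, also called 7B2, is the chaperone of Pcsk2 and is needed for that enzyme to mature. Pam uses copper and ascorbate, and spans the granule membrane in its longer forms.

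The promoters of several granin genes are known to hold a cyclic AMP response element (CRE), so the sequence before the annotated start is shown for 4 members: Pam and Scg5, which differed between the strains, and Scg2 and Chgb, which hold a full CRE. The letters are from RefSeq (GRCm38.p6, a C57BL/6J assembly, so no DBA allele is shown), 180 bases up to the base before 1 annotated start. Capitals mark the CRE (TGACGTCA), its core (TGACG) where it stands alone, and the GC box (GGGCGG), on either strand.
Pam, chr1:98095647-98095826, minus strand: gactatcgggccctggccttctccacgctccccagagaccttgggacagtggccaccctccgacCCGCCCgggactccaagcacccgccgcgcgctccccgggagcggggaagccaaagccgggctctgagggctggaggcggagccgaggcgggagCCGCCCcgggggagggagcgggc
Scg5, chr2:113829092-113829271, minus strand: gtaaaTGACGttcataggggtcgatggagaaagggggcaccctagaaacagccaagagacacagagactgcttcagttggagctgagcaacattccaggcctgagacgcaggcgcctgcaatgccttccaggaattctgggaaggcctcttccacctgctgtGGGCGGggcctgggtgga
Scg2, chr1:79440027-79440206, minus strand: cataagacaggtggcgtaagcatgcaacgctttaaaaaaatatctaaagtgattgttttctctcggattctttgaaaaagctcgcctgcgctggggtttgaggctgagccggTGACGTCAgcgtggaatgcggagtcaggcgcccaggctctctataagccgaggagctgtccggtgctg
Chgb, chr2:132781462-132781641, plus strand: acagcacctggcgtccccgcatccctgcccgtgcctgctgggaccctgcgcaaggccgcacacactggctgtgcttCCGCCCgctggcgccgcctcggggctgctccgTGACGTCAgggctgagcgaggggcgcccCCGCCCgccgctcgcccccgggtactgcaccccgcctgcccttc

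Promoter windows were listed for all members but Cpe, 8 in number, Pcsk2 included. In the 250 bases before the start, a full CRE stood in 3 of them, Pcsk1, Scg2 and Chgb, against 1.62% of 27025 genes with a listed promoter. The core TGACG, which a full CRE also contains, stood in 7 of the 8 windows, against 17.9% of all genes. Pam was the window without it. The GC box, found in 32.9% of all promoters, stood in 5 of the 8 windows, at 7 places before Pcsk2, 2 before Pam, 2 before Chga, 2 before Chgb and 1 before Scg5. These are matches of letters and do not show that a factor binds. The Pam window lies within the span of the RefSeq gene, whose longest record starts further upstream.

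Pam had an intensity of 1655.5, 1118.7, 1477.1 and 1094.2 in DBA animals 1 to 4, against 22.4, 64.2, 160.3, 91.4 and 129.1 in C57 animals 1 to 5 (probe set 100496_at, arrays scaled by the authors to a common target). The strains were far apart, with the lowest DBA animal 6.83 times as bright as the highest C57 animal. The mean was 1336 ± 275 in DBA (SD, n = 4) and 93.5 ± 54.0 in C57 (SD, n = 5), and the ratio of geometric means was 17.1, or 4.09 ± 0.50 as a log2 difference with its standard error. This was the only probe set of Pam, so no other value on these arrays can be set beside it, and the files do not say which part of the transcript it reads.

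The C57 animals differed among themselves at Pam far more than at most probe sets of like brightness. Animal 3 was 7.16 times as bright as animal 1, and the SD of log2 intensity was 1.12 (n = 5), larger than at 98.2% of 1354 tested probe sets whose C57 mean lay within 0.5 on the log2 scale, where the median SD was 0.41. In DBA the highest animal was 1.51 times the lowest and the SD was 0.30 (n = 4), larger than at 87.8% of 1116 probe sets of like brightness, where the median was 0.17. C57 animal 1 lay below the intensity of 35.4 under which probe sets were taken as too dim to test. All 5 C57 values, 22.4 to 160.3, lay below the C57 levels of Krt10 (407) and Acta1 (301), listed as markers of other organs. Apoa2, another such marker, had 45.4 in C57. Whether the C57 values at Pam stand above background was not tested. With each array centred on its median, the SD at Pam was 0.35 in DBA and 1.18 in C57. The log2 difference was 3.65 without C57 animal 1, the lowest value with 1 animal left out, and 4.36 without C57 animal 3, the highest.

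**Figure D1:**
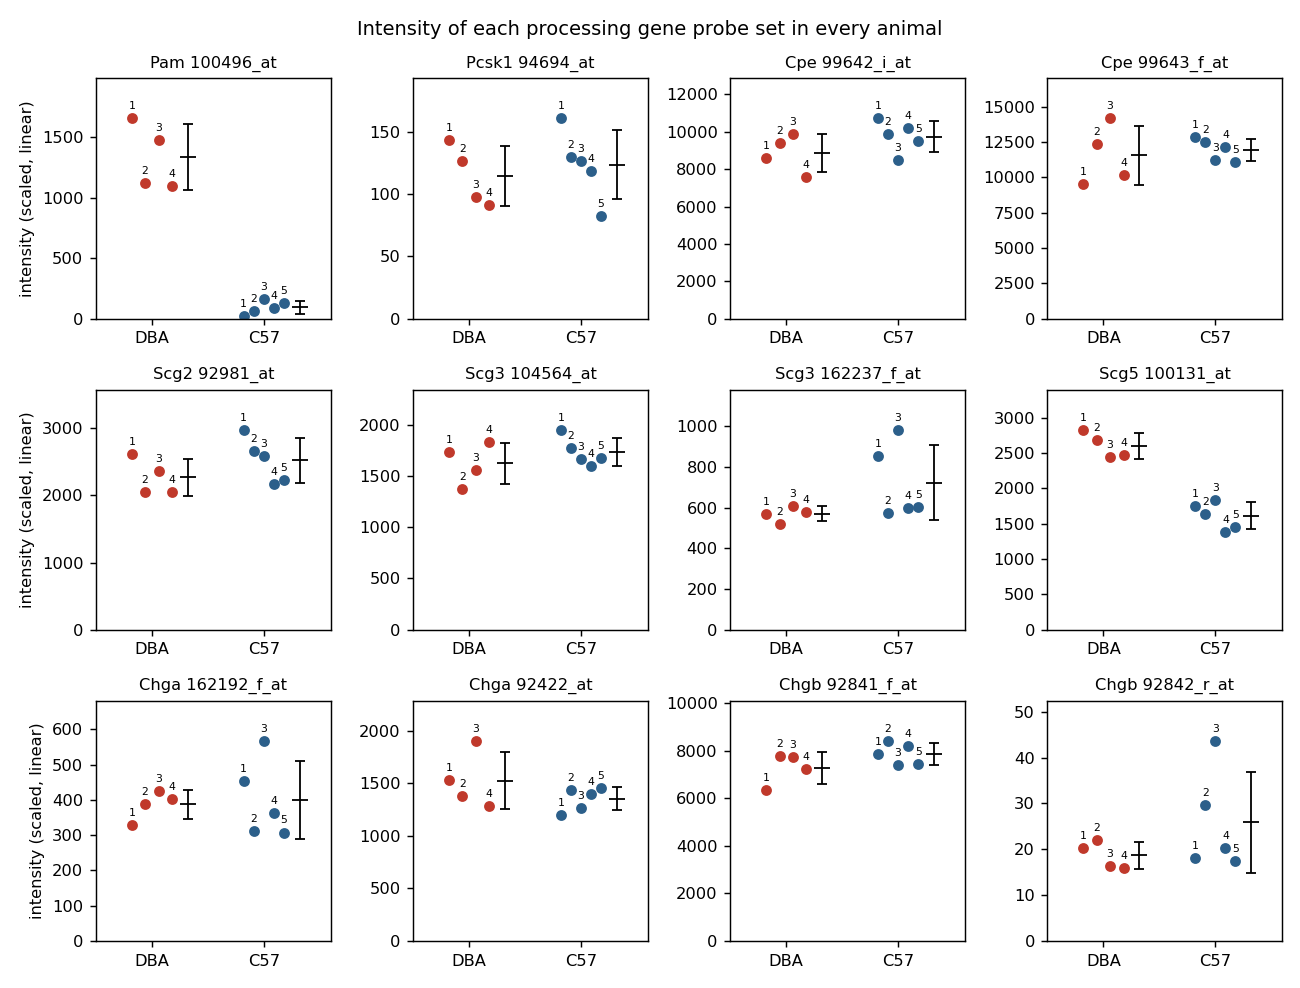
Intensity (linear scale, from 0) of the 12 probe sets of the measured processing genes, with DBA animals in red left of C57 animals in blue, digits giving the animal and black marks the mean with its SD. Pam and Scg5 are the panels in which all 4 DBA points lie above all 5 C57 points.

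Scg5 was the other member whose strains did not overlap. Its intensity was 2830.6, 2679.1, 2442.2 and 2466.6 in DBA animals 1 to 4, against 1743.7, 1642.8, 1833.8, 1379.9 and 1450.4 in C57 animals 1 to 5 (100131_at). All 4 DBA animals were brighter than all 5 C57 animals, with the lowest DBA animal 1.33 times as bright as the highest C57 animal. Within a strain, the highest animal was 1.16 times the lowest in DBA and 1.33 times the lowest in C57. The mean was 2605 ± 184 in DBA (SD, n = 4) and 1610 ± 192 in C57 (SD, n = 5), a ratio of geometric means of 1.62 and a log2 difference of 0.70 ± 0.12 (SE). With 1 animal left out, the log2 difference ran from 0.65 to 0.75. Pcsk2, the convertase that Scg5 chaperones, had no probe set, so the pair could not be compared.

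In the fit over all probe sets (limma, Benjamini-Hochberg adjusted p under 0.05), 2 of the 8 measured members passed by their brightest probe set, Pam and Scg5, both higher in DBA. Over all genes by the same rule 2.23% passed, 0.772% as higher and 1.46% as lower in DBA. Counted by probe set, 2 of the 11 member sets bright enough to test passed, against 2.5% of the 9316 sets tested (0.891% higher and 1.61% lower in DBA). The strains did not overlap at 2 of the 11, against 6.45% of all tested sets (2.84% higher in DBA). Since this comparison was known when the members were chosen, the counts are not evidence about the set. The median log2 difference of the 8 members was -0.08, against 0.01 over all genes.

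The convertase and the carboxypeptidase showed no comparable gap. Pcsk1, which makes the first cuts in many precursors, had an intensity of 143.1, 126.3, 97.6 and 91.0 in DBA and 160.7, 129.6, 126.9, 118.9 and 82.4 in C57 (94694_at). The ranges overlapped almost fully, and the lowest value of all was that of C57 animal 5. The log2 difference was -0.10 ± 0.21, with a 95% interval from -0.56 to 0.35. This set was dim, with geometric means of 113 in DBA and 121 in C57, below the lowest array median of either strain (168 and 160). It was not tested when the dimmest 50% of sets were left out. Whether it reads Pcsk1 above background was not tested, so its lack of a gap says little. Cpe was read by a pair of probe sets, which ran from 9552.8 to 14159.4 in DBA and 11074.8 to 12836.8 in C57 at 99643_f_at, and from 7595.1 to 9888.8 in DBA and 8485.0 to 10713.9 in C57 at 99642_i_at. Its log2 differences were -0.06 ± 0.13 (95% interval -0.36 to 0.23) and -0.14 ± 0.11 (95% interval -0.40 to 0.12), and the pair followed each other over the 9 arrays (Pearson r = 0.77).

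Among the other granins the strains overlapped at every probe set. Scg2, the precursor of secretoneurin, lay between 2049.4 and 2617.1 in DBA and between 2171.5 and 2980.9 in C57, with a log2 difference of -0.15 ± 0.13 (95% interval -0.44 to 0.14). Chgb lay between 6346.7 and 7779.0 in DBA and between 7412.2 and 8426.0 in C57 at 92841_f_at, a log2 difference of -0.11 ± 0.10 (95% interval -0.34 to 0.11). Its other probe set, 92842_r_at, was below the brightness limit, from 15.9 to 22.1 in DBA and 17.5 to 43.7 in C57, and was not tested.

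Scg3, which binds other granins to the cholesterol-rich granule membrane, had 1734.3, 1369.3, 1559.3 and 1828.8 in DBA and 1951.5, 1767.7, 1662.4, 1594.6 and 1677.2 in C57 at its brighter probe set, 104564_at. The difference was -0.10 ± 0.12 (95% interval -0.36 to 0.16). At the dimmer 162237_f_at it had 569.7, 521.8, 608.7 and 580.9 in DBA and 854.8, 575.0, 984.1, 597.3 and 602.8 in C57, a difference of -0.31 ± 0.18 (95% interval -0.70 to 0.08). At this dimmer probe set C57 animals 1 and 3 stood well above the other 7 animals, whereas at the brighter one C57 animal 1 was the highest and C57 animal 3 the next to lowest of the C57 animals.

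Chga, a widely used marker of dense core granules, showed the same pair of animals at its dimmer probe set. At 92422_at it had 1536.7, 1380.2, 1906.3 and 1286.6 in DBA and 1203.1, 1439.2, 1270.1, 1401.9 and 1458.2 in C57, a difference of 0.16 ± 0.13 (95% interval -0.14 to 0.46). At 162192_f_at it had 330.1, 389.7, 426.4 and 403.6 in DBA and 454.5, 310.8, 568.0, 362.0 and 307.6 in C57, a difference of -0.01 ± 0.19. C57 animals 1 and 3 were again the brightest C57 animals at the set of the 162 series and the dimmest at the other, and the Chga pair ran against each other over the 9 arrays (r = -0.31). C57 animals 1 and 3 were the 2 brightest of the 5 C57 animals at 56.3% of 247 tested probe sets whose identifier starts with 162, against 28.5% of 9069 other tested sets, a comparison chosen after the Scg3 and Chga values were seen. The suffix f_at marks sets whose probes match a family of similar sequences, and the brightest sets of Cpe and Chgb carry it too.

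**Figure D2:**
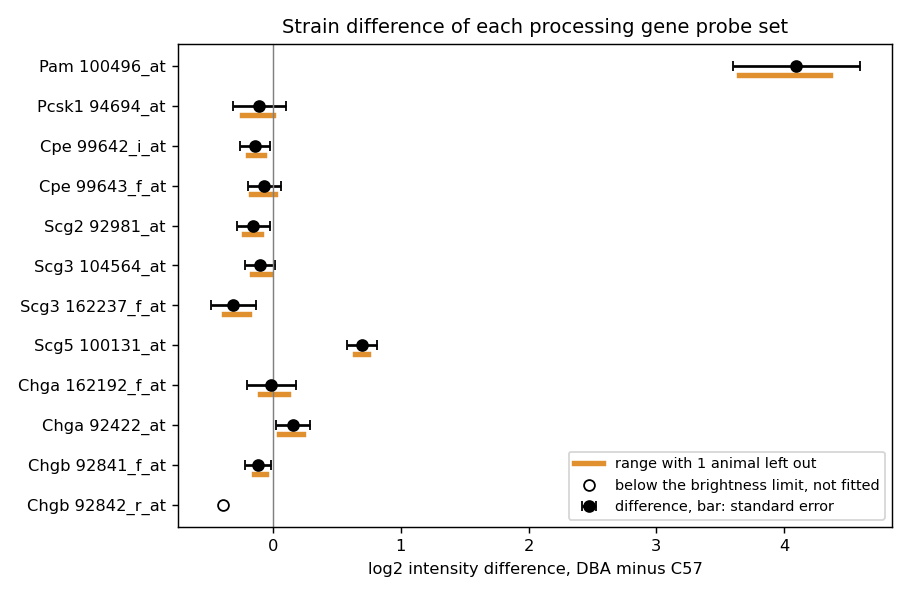
Log2 intensity difference (DBA minus C57) of each probe set, with its standard error as a black bar, the range with 1 animal left out in orange, and an open point for the Chgb set below the brightness limit. Pam lies at 4.09 and Scg5 at 0.70, while the other fitted sets lie between -0.31 and 0.16.

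The spread between animals of the remaining members was set against probe sets of like brightness in the same way. In C57 the SD of log2 intensity was 0.35 at Scg3 162237_f_at and 0.38 at Chga 162192_f_at, above 93.6% and 90.4% of probe sets of like brightness, and the remaining member sets apart from Pam lay above 13.8% to 71.2%. The SD of Scg5 was 0.10 in DBA (above 24.6%) and 0.17 in C57 (above 63.7%). In DBA the highest placed member set after Pam was Cpe 99643_f_at, with an SD of 0.26, above 85.6% of 97 probe sets of like brightness. Among the brightest sets of the 8 genes, the deviations from the strain mean correlated over the 9 arrays at -0.49 to 0.82 (28 pairs, median -0.12). Cpe and Chgb, both read by f_at sets, were the pair at 0.82. Pam correlated at -0.49 to 0.38 with the other 7, lowest with Pcsk1 and highest with Chga. These r values rest on 9 arrays that share their scaling and are given as a description.

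**Figure D3:**
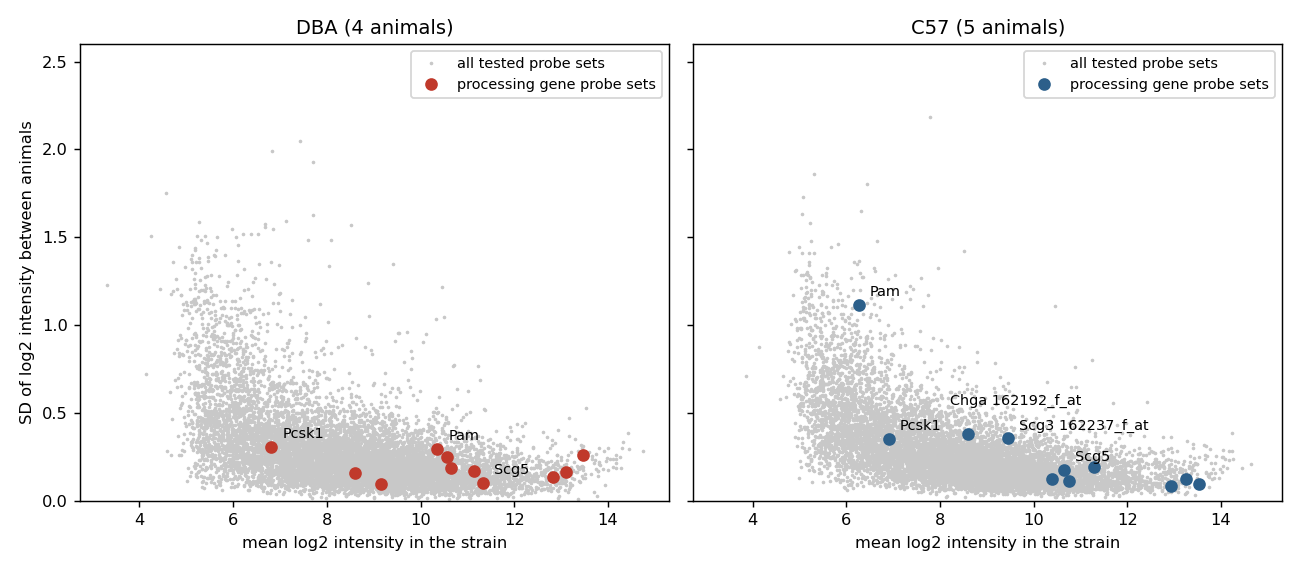
SD of log2 intensity between animals against the mean log2 intensity, DBA left and C57 right, with all tested probe sets in grey and those of the processing genes coloured. Pam stands high among probe sets of its brightness in C57, with an SD of 1.12, and at 0.30 in DBA.

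Other genes of the pathway were taken from lists, with each gene read by its brightest set. Over all genes, 12.3% had an unadjusted p under 0.05. The list of enzymes that cut, trim or degrade peptides also held the inhibitor gene Pcsk1n. Of its 18 tested genes, limma called 0, and 2 had an unadjusted p under 0.05. The median log2 difference was 0.03. The 2 were Pcsk4, a convertase known mainly from germ cells, at 1.17 ± 0.34 (intensity 130 in DBA and 57.9 in C57, adjusted p = 0.140), and Prep, a prolyl peptidase, at -0.57 ± 0.17 (72.8 in DBA and 108 in C57, adjusted p = 0.146). The convertase Furin differed by -0.03 ± 0.14, the Golgi carboxypeptidase Cpd by -0.03 ± 0.17, and Pcsk1n, whose product proSAAS inhibits Pcsk1, by 0.24 ± 0.14. Pcsk4 and Prep were the smallest p-values of the list, and the other 3 were chosen after their values were seen.

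Of 8 tested genes that supply or bind Pam, limma called 0, and 0 had an unadjusted p under 0.05, with a median of -0.05. The smallest p was that of Kalrn, which binds the cytosolic tail of Pam (-0.14 ± 0.09, 3079 in DBA and 3384 in C57, adjusted p = 0.653). Cyb561, the granule cytochrome that renews ascorbate, differed by -0.10 ± 0.14, and the copper pump Atp7a, which fills the enzymes of the secretory route, by -0.19 ± 0.15. The copper importer Slc31a1 differed by 0.03 ± 0.12 and the ascorbate transporter Slc23a2 by 0.02 ± 0.11. Cyb561, Atp7a, Slc31a1 and Slc23a2 were named for their roles, outside the naming rule.

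The substrates of Pam, precursors of amidated peptides, had 0 of 20 tested members called by limma, and a median of 0.04. An unadjusted p under 0.05 was found for 3 of them, Adm included. The smallest p was that of Adm, the precursor of adrenomedullin (0.85 ± 0.27, 60.9 in DBA and 33.8 in C57). Its C57 level was below the brightness limit, so Adm was tested only through its DBA level, and its p is not given. Of the abundant brain precursors, Npy differed by 0.07 ± 0.16, Cck by -0.22 ± 0.11, Tac1 by -0.03 ± 0.12 and Oxt by 0.56 ± 0.30, all chosen after their values were seen. Peptide precursors outside the amidated list had 0 of 14 called by limma, 1 with an unadjusted p under 0.05, and a median of 0.18, with Cbln1 leading (0.40 ± 0.10, 2508 in DBA and 1904 in C57, adjusted p = 0.0928).

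The dense core vesicle list, which also held general sorting and membrane fusion genes, had 1 of 17 called, or 5.88% against the 2.23% of all genes. Of the 17, 4 had an unadjusted p under 0.05, and the median was -0.11. The call was Sorl1, a sorting receptor of the Golgi and endosomes, which fell to 183 in DBA, against 496 in C57 (-1.44 ± 0.19, adjusted p = 0.00263 by limma, no overlap between the strains). The vesicle proteins Ptprn (-0.16 ± 0.10) and Cadps (0.09 ± 0.10), and the fusion proteins Snap25 (0.09 ± 0.13), Vamp2 (-0.25 ± 0.11) and Stx1a (-0.36 ± 0.10), were not called and were chosen after their values were seen. The strains did not overlap at 3 of the 17 genes, Sorl1, Stx1a and Rab3d (0.30 ± 0.11), against 6.47% of all genes.

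**Figure D4:**
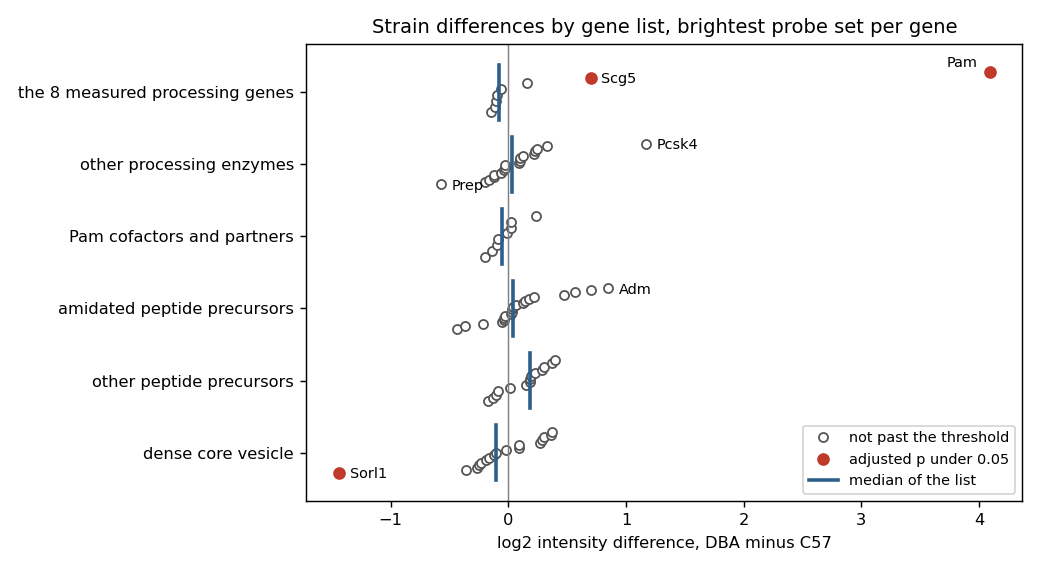
Log2 difference (DBA minus C57) of each tested gene by list, red where the adjusted p was under 0.05 and open otherwise, with a blue line at the median of each list. Pam, Scg5 and Sorl1 are the red points, and the medians lie between -0.11 and 0.18.

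Pam lies on chromosome 1 and Scg5 on chromosome 2 in the RefSeq table. Of the 10 nearest tested genes on each side of Pam, 2 of 20 passed the threshold, against 2.23% of all genes. Tmem37 was higher in DBA (0.87 ± 0.15, 173 in DBA and 94.4 in C57, adjusted p = 0.0115 by limma). Gli2, a transcription factor of hedgehog signalling, had 79.6 in DBA and 32.2 in C57. Its C57 level was below the brightness limit, so it was tested only through its DBA level, and it is given without a p. Of the 19 neighbours with both strains above the limit, 1 passed. Gli2 and Tmem37 were the seventh and the ninth in order on the same side. The nearest tested genes, Macir on one side and Tnfrsf11a on the other, differed by -0.05 ± 0.11 and 0.04 ± 0.15. The median of the 20 was -0.01.

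Around Scg5, a count added after its values were seen, 2 of 20 neighbours passed. Immp1l, a subunit of the mitochondrial inner membrane peptidase, fell to 206 in DBA, against 655 in C57 (-1.67 ± 0.14, adjusted p = 0.000105), and Dnajc17 was higher (0.53 ± 0.10, 268 in DBA and 186 in C57, adjusted p = 0.0260). The Dnajc17 call was lost without DBA animal 1 or 2 or C57 animal 1, 2, 4 or 5 (adjusted p 0.0538 to 0.0957), with median centring (0.0859) and without a filter on dim sets (0.0531). The neighbours just beside Scg5, Ryr3 and Actc1, differed by 0.08 ± 0.15 and 0.02 ± 0.17.

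**Figure D5:**
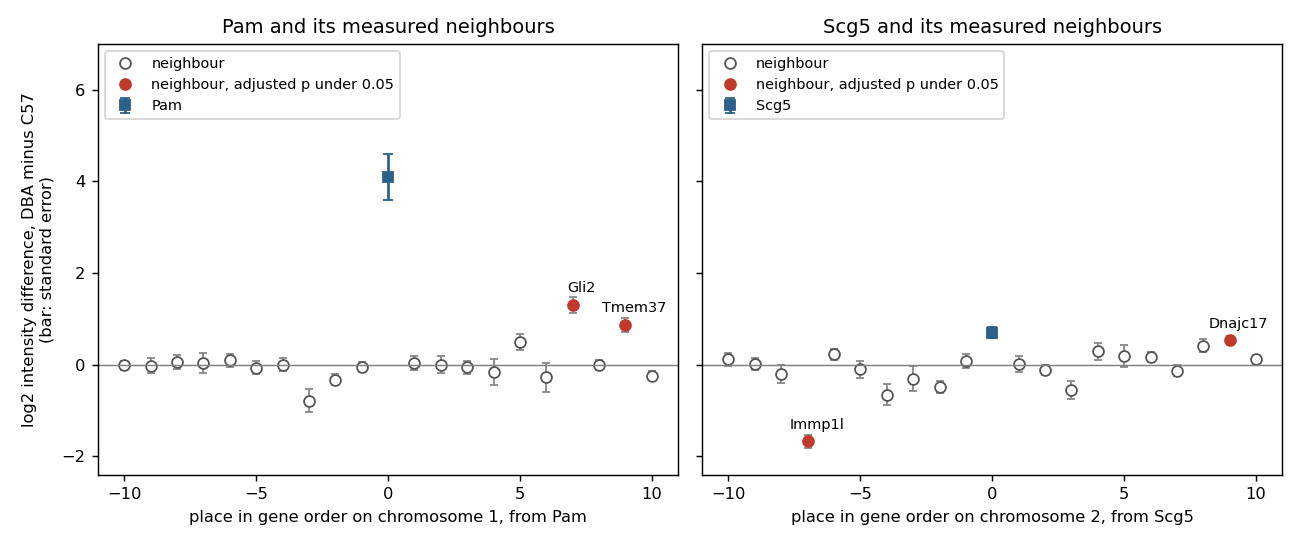
Log2 difference (DBA minus C57, bars: standard error) of the 10 nearest tested genes on each side of Pam (left) and Scg5 (right), by place in gene order, red where the adjusted p was under 0.05. Pam at 4.09 stands apart from its neighbours, which lie between -0.78 and 1.30. Gli2 is drawn red although it was tested only through its DBA level.

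The genes whose pattern was most like that of Pam were found by Pearson r of log2 intensity over the 9 arrays, among 8391 named tested probe sets. They were Mid1ip1 (0.954), Gnb1 by 97458_at (0.952), Cox18 (0.952), Cbln1 (0.950) and Srsf2 (0.942), with log2 differences of 0.37 ± 0.09, 4.08 ± 0.16, 0.71 ± 0.11, 0.40 ± 0.10 and 0.92 ± 0.14 in that order. Gnb1, Cox18 and Srsf2 passed the threshold by limma (adjusted p = 2.31e-06, 0.00650 and 0.00505), and Mid1ip1 and Cbln1 did not (adjusted p = 0.0591 and 0.0928). These r values include the gap between the strains, and r was over 0.9 at 0.381% of the probe sets. Picking sets by such an r favours sets that differ between the strains, so these calls add no evidence about a link to Pam. By deviations from the strain mean, which leave the strain gap out, the most like were Rsl24d1 (0.950), Cox5b (0.947), Rhpn1 (0.944), Pde6d (0.941) and Dclre1a (0.938). Their strain differences ran from -0.24 ± 0.11 (Cox5b) to 1.04 ± 0.49 (Dclre1a), with adjusted p-values by limma from 0.410 (Cox5b) to 0.932 (Rsl24d1). Without C57 animal 1, the lowest C57 animal at Pam, r was 0.717 to 0.818 for these 5 and 0.918 to 0.970 for the first 5, values added after the data were seen. Also without it, the log2 difference of Dclre1a was 0.57 and that of Cox5b -0.31. Each r rests on 9 arrays, or 8 without that animal, and is given as a description.

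On the arrays as a whole, the median intensity ran from 168 to 188 in DBA and 160 to 198 in C57. The brain label fitted the neuron markers, with Snap25 at 17771 in DBA and 16684 in C57. Of 6 genes listed as markers of other organs, 3 were nonetheless bright enough to test. They were Krt10 (318 in DBA and 407 in C57), Acta1 (282 and 301) and Apoa2 (52.8 and 45.4). The liver gene Alb was below the brightness limit in both strains. Limma called 0 of 40 tested neuron, astrocyte, oligodendrocyte, pituitary, choroid plexus, blood and endocrine markers, of which 12, or 30%, had an unadjusted p under 0.05, against 12.3% of all genes. Pituitary, which is rich in granules, gave summed intensities over 8 markers of 762 to 1125 in DBA and 642 to 1318 in C57, so the strains overlapped. Choroid plexus gave 7182 to 8494 in DBA and 3408 to 6859 in C57 over 4 markers, led by Ttr (0.85 ± 0.30) and Igf2, without overlap. Oligodendrocyte markers gave 20854 to 24690 in DBA and 21014 to 28715 in C57 over 7 markers, with overlap. Their median log2 difference was -0.38, and 3 of 6 tested had an unadjusted p under 0.05, Mog (-0.62 ± 0.18), Cldn11 (-0.59 ± 0.16) and Mag (-0.57 ± 0.16). The other 3 tested were Mbp (-0.18 ± 0.12), Mobp (-0.11 ± 0.19) and Mal (0.08 ± 0.34). An unadjusted p under 0.05 was also found for 3 of 10 neuron, 2 of 7 astrocyte, 2 of 4 choroid plexus, 2 of 5 blood and 0 of 6 pituitary markers. RNA integrity and labelling were read from control sets at the 3' and 5' ends of a transcript. For Gapdh the 3' over 5' ratio, as log2, was -0.44 to -0.32 in DBA and -0.29 to -0.19 in C57, without overlap. That of Actb overlapped (0.52 to 0.66 in DBA and 0.50 to 0.91 in C57). The ratio of the transferrin receptor was the highest and overlapped too (1.61 to 1.86 in DBA and 1.70 to 2.00 in C57). The part of these cell type markers and of these ratios in the Pam and Scg5 differences was not tested.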

How the data were processed

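The analysed values are linear intensities as the authors deposited them; for the scanner software, the probe summary and the normalization, the sources used here give nothing. Target cRNA was made from 5 ug of RNA, per the labels. With the highest and lowest 2% left out, every array averaged 500.3, so the authors had scaled each to 1 target. The platform annotation names 1 gene for 10855 of 12488 probe sets, several for 396 and none for 1237; 10839 symbols were updated with RefSeq's table for GRCm38.p6. Values below the 1st percentile (1.70) were set to it, log2 was taken, 66 control sets were dropped, and the dimmest 25% (below 35.4) were not tested, which left 9316. The strain difference, DBA minus C57, was fitted with limma 3.58.1 (lmFit, eBayes) under R 4.3.3. P-values were 2-sided and adjusted by Benjamini-Hochberg over all 9316 sets, with 0.05 as the threshold. Precision is limited by the number of arrays. The labels give no litter, cage or batch. The p-values weigh the strain difference against the spread between arrays of a strain, which with 1 array per animal mixes animal and array variation.

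In arrays simulated for this comparison over 9316 sets, 90% of 50 sets raised by 2 on the log2 scale and 98% of 50 lowered by 2 were called, as were 78% raised and 70% lowered by 1. The text names all member sets, from each list the called genes or else the gene with the smallest p, the 5 sets most like Pam by each measure, and the called neighbours; the text says where a gene was picked otherwise. Members and lists were chosen with earlier results of these data known. Same-numbered DBA and C57 arrays were not taken as pairs. Other scalings, floors, filters, variance models, a replicate block and leaving out each animal were tried. Protein sequences, planned as a further description, were not used here. Figures were drawn with matplotlib 3.10.9.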

Additional observations from a re-analysis of the deposited data

Results flagged for a closer look

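Dixon's test was run on 60 strain groups, which were the member sets and the sets picked by the naming rule, in each strain. Sets named outside that rule, such as those of Prep and Stx1a, were not examined. An animal stood far from the others of its strain at 5 of the 60 groups. Chance flags about 1 in 20 where sets are not picked by their values, which does not hold for the sets picked as most like Pam. None was a probe set of Pam, Scg5 or another of the 8 measured members. At Pcsk4, DBA animal 4 had 89.2 and the rest of its strain 142.5 to 153. The log2 difference of Pcsk4 ran from 0.92 to 1.35 with 1 animal left out. C57 animal 1 had 3665.1 at Kalrn, against 3273.6 to 3360.1 in the other C57 animals. It also had 3824.3 at Cox5b, against 4742.6 to 5012.8, and 343.5 at Gnb1 97458_at, against 468.5 to 515.9. DBA animal 2 had 2981.4 at Mid1ip1, against 2755.8 to 2776.4 in the other DBA animals. C57 animal 1 is the lowest C57 animal at Pam, where its value was not far enough from the others to be flagged. Cox5b and Gnb1 were named for their r with Pam, so a low C57 animal 1 at these sets is partly built in by that choice.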

How the results depend on the processing

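The direction of the Pam and Scg5 differences held under all 17 other settings run. The Pam log2 difference was 3.78 to 4.28 under other scaling, floors, filters, variance models and the block, and 3.65 to 4.36 with 1 animal left out. The replicate block (animal number) gave 73 calls in all in place of 233, 1 member, and 0 genes of the dense core vesicle list, with Sorl1 at an adjusted p of 0.0831 by limma. Scg5 was not called with the block, at a log2 difference of 0.66. Tmem37, Cox18, Srsf2 and Dnajc17 also lost their calls with it (adjusted p 0.0676 to 0.320 by limma). So did Gli2, given without a p because it was tested only through its DBA level, and no other gene picked by the naming rule did. Under the block the log2 difference was -1.41 for Sorl1, 1.29 for Gli2, 0.79 for Tmem37, 0.71 for Cox18, 0.98 for Srsf2 and 0.50 for Dnajc17. Same-numbered DBA and C57 arrays were not shown to be pairs, since their deviations from the strain mean correlated at -0.167 to -0.007 and 0 of 4 correlated best with their own number. At an adjusted p under 0.01, 150 sets were called. With quantile normalization 1 processing enzyme outside the members was called, Prep (-0.61 ± 0.13, adjusted p = 0.0343 by limma). Among peptide precursors outside the amidated list 1 was called with the dimmest 50% left out or with a trend and robust prior, Cbln1 (adjusted p = 0.0477 and 0.0274 by limma). With any probe set of a gene 1 was called, Edn1, named after its values were seen. The call was at the dimmer 102737_at (-0.76 ± 0.13, 43.3 in DBA and 73.5 in C57, adjusted p = 0.00851 by limma). Its brighter set, 102738_s_at, was not called (-0.10 ± 0.30, 108 in DBA and 116 in C57, adjusted p = 0.934 by limma). With 1 animal left out, 185 to 231 sets were called. The causes were not tested. Pam rests on 1 probe set, and C57 animal 1 lies near the dim end of what these arrays measure. The other C57 values at Pam are dim too, so its ratio and its C57 spread may rest partly on background, which was not tested.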
